A study of Homo sapiens with 3 samples.

Results

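Promoters of 10 mucin genes were read in chromatin immunoprecipitation sequencing (ChIP-seq) of SW1990, an established human line of pancreatic ductal cancer. The genes were taken by name as mucins of duct epithelium, and each had 1 of the 60123 promoter windows. Of these, 4 encode gel-forming mucins (MUC6, MUC2, MUC5AC and MUC5B) and 6 encode membrane-bound mucins (MUC1, MUC4, MUC13, MUC16, MUC17 and MUC20). Chromatin of the SW1990 population that the labels call SP was fixed with formaldehyde and EGS and precipitated with an antibody to PAF1 in 1 library and to PHF5A in another. The remaining library, of input chromatin, was not analysed here. PAF1, which the sample title calls PD2, belongs to a complex that travels with elongating RNA polymerase II. PHF5A is a small protein of the SF3b complex, which recognizes the branch point during splicing. No treatment, knockdown or second cell line was part of the groups, and all values come from this single line.

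Mucins are long glycoproteins whose serine- and threonine-rich repeats carry dense O-linked sugars. Gel-forming mucins are secreted and linked by disulfide bonds into the mucus polymer, while membrane-bound mucins stay anchored in the apical surface and can pass signals through their cytoplasmic tails. Ductal pancreatic tumours are known for changed mucin expression, in which MUC4 and MUC5AC, scarcely made by normal ducts, often appear. Expression was not measured here, and signal at a promoter is not a measure of it.

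A value is the authors' mean signal over a window that reaches 2000 bp before a start site and 500 bp past it. The sources used here do not give its unit, and no input value stands beside it. Each antibody has 1 library, so the libraries are compared without replicates and without p-values. A number after ± is the standard error that counting alone gives, built with a dispersion of 4.33 that takes in any true difference between the libraries. A window at 0 could still hold a signal of 0.721 to 0.763 with PAF1 and 0.725 to 0.768 with PHF5A by counting error, and a value under that floor is no more exact than 0. Added up over the bins of all promoter windows, some of which overlap, the signal came to 4810548 for PAF1 and 4891421 for PHF5A. Sequencing depth itself was not read. The median promoters of the libraries stood at 4.11 and 4.30.

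The upstream sequences of the promoters whose start sites in RefSeq (GRCh38.p14) fell inside the deposited windows are shown here, since they set a mucin promoter with almost no signal, MUC2, beside membrane-bound mucins of similar base composition. RefSeq gave a promoter for 6 of the 10 genes, and for 4 of them the 250 bases before the start site lay within the window. They are written 5′ to 3′ on the strand of the gene, ending at the base before the start site, and capitals mark matches to the motifs described after them. The stretches are chr11:1074624-1074873 (plus strand) for MUC2, chr1:155192916-155193165 (minus strand) for MUC1, chr3:195811930-195812179 (minus strand) for MUC4 and chr7:101019831-101020080 (plus strand) for MUC17.
MUC2: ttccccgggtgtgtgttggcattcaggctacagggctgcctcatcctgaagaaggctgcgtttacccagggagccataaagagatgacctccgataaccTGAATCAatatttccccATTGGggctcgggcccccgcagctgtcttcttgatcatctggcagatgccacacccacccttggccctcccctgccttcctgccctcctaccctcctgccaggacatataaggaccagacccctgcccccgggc
MUC1: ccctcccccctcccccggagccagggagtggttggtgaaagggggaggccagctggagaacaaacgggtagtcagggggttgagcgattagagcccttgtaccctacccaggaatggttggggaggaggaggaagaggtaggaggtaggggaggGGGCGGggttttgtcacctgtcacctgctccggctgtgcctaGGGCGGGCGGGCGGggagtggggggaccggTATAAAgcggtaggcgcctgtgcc
MUC4: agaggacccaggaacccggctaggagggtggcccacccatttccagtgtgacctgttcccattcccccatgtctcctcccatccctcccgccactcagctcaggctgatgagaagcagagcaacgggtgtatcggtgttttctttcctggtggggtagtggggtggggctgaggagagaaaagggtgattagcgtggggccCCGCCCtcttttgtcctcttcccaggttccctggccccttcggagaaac
MUC17: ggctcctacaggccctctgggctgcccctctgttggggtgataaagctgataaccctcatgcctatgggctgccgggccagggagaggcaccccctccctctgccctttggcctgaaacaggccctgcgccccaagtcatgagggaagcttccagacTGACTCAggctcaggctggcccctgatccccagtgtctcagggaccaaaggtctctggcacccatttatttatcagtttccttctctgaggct

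The motifs searched on both strands were TATAAA (the hexamer read by the TATA-binding protein), GGGCGG (read by Sp1), CCAAT (read by NF-Y), CACGTG (the E box), TGANTCA (a pattern broader than the site TGACTCA or TGAGTCA read by AP-1) and CCGGAA (read by ETS factors). MUC1 held TATAAA with its first base 24 bases upstream of the start, a motif found in 11.1% of 27305 RefSeq promoters, and 4 matches to GGGCGG, some of which overlap each other. MUC4 held 1 match to GGGCGG, on the opposite strand, and this motif occurred in 42.3% of all promoters. MUC2 and MUC17 each held TGANTCA, present in 6.60% of promoters. The match was TGACTCA in MUC17 but TGAATCA in MUC2, which is not the AP-1 site. MUC2 also held CCAAT on the opposite strand, present in 33.0%. CACGTG and CCGGAA, found in 6.49% and 14.8% of promoters, had no match in these 4 stretches. A match describes letters and not a bound site.

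Of the 4 gel-forming mucins, 3 had the lowest promoter signals of the 10 genes. MUC6, a mucin of gastric and duodenal glands (ENSG00000184956, chr11:1036206-1038706), had 0.290 ± 0.274 with PAF1 and 0.760 ± 0.444 with PHF5A. MUC2, the main mucin of intestinal goblet cells (ENSG00000198788, chr11:1072875-1075375), had 0.610 ± 0.383 with PAF1 and 0.160 ± 0.201 with PHF5A. MUC5B, a mucin of airway and salivary glands (ENSG00000117983, chr11:1221066-1223566), had 0.660 ± 0.400 with PAF1 and 0.610 ± 0.386 with PHF5A. These 3 genes lay under the counting floor in both libraries, as did 7.11% of all windows with PAF1 and 6.64% with PHF5A, so their order among themselves cannot be read.

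MUC5AC stood apart from its 3 neighbours. This mucin of the gastric surface, which is often made in pancreatic precursor lesions (ENSG00000215182, chr11:1155953-1158453), had 3.33 ± 0.895 with PAF1 and 4.97 ± 1.10 with PHF5A. It exceeded MUC5B, whose start lies 65.1 kb away, by 2.67 ± 0.981 with PAF1 and by 4.36 ± 1.16 with PHF5A, which is 2.72 and 3.75 counting standard errors. Against MUC2, 83.1 kb away, the difference was 2.79 and 4.31 standard errors, and against MUC6 it was 3.25 and 3.56. MUC5AC was still near the middle of all promoters, at percentile 37.3 with PAF1 and 59.6 with PHF5A, where a percentile is the share of the 57997 symbols with a lower signal. Protein-coding-style symbols had lower medians than all symbols, 3.64 with PAF1 and 3.91 with PHF5A. Among them MUC5AC stood at percentiles 44.3 and 65.3.

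Membrane-bound mucins ran from 1.94 to 11.05 with PAF1 and from 2.29 to 11.8 with PHF5A. MUC20, a mucin described in kidney and other epithelia (ENSG00000176945, chr3:195718882-195721382), was highest in both libraries, at 11.05 ± 1.63 with PAF1 and 11.8 ± 1.69 with PHF5A. It lies in a stretch of chromosome 3 with near-identical copies, so its value is uncertain. MUC13, a mucin of the gastrointestinal surface (ENSG00000173702, chr3:124953319-124955819), followed at 9.23 ± 1.53 and 9.40 ± 1.55.

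MUC1, the mucin found on the apical surface of most glandular epithelia (ENSG00000185499, chr1:155192416-155194916), had 3.82 ± 0.986 with PAF1 and 4.49 ± 1.07 with PHF5A, close to the median promoter in both. MUC4, a partner of the receptor ERBB2 (ENSG00000145113, chr3:195811777-195814277), had 4.55 ± 1.05 with PAF1 and 2.29 ± 0.744 with PHF5A. MUC17, a mucin of the intestinal brush border (ENSG00000169876, chr7:101018072-101020572), had 1.94 ± 0.684 and 2.68 ± 0.805. MUC16, which carries the CA125 antigen (ENSG00000181143, chr19:8980842-8983342), had 2.47 ± 0.793 with PAF1 and 7.51 ± 1.39 with PHF5A.

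**Figure D1:**
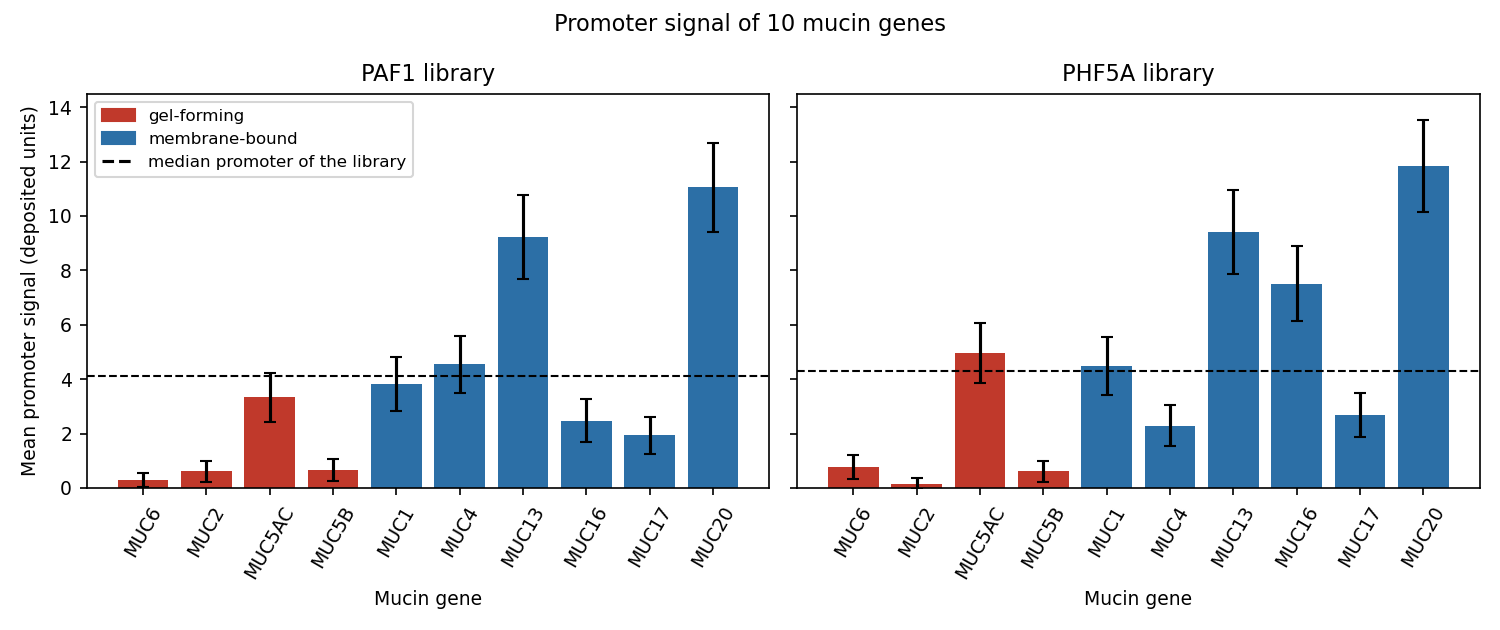
Bars show the mean promoter signal in deposited units (vertical axes, from 0) of the 4 gel-forming mucins in red and the 6 membrane-bound mucins in blue, in the PAF1 library on the left and the PHF5A library on the right, with counting standard errors of 1 library and a dashed line at the median promoter. MUC6, MUC2 and MUC5B are lower than every membrane-bound mucin in both panels, while MUC20 and MUC13 exceed 9 in both.

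In the order of levels, genes next to each other were seldom separable. Of the 9 neighbouring pairs, 1 differed by more than 2 counting standard errors with PAF1, MUC13 over MUC4 at 2.52 standard errors, and no pair did with PHF5A, where the widest gap was 1.77. At both ends of the order the same genes stood in both libraries, with MUC20 and MUC13 at the top and MUC6, MUC2 and MUC5B at the bottom. In between, MUC5AC, MUC1, MUC4, MUC16 and MUC17 changed places.

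As a class, the gel-forming promoters averaged 1.22 ± 0.272 with PAF1, against 5.51 ± 0.476 for the membrane-bound promoters. With PHF5A the averages were 1.62 ± 0.315 for gel-forming and 6.37 ± 0.515 for membrane-bound mucins. The log2 ratio of gel-forming over membrane-bound signal was -2.17 ± 0.344 with PAF1 and -1.97 ± 0.303 with PHF5A. The classes overlapped through MUC5AC alone, which exceeded MUC16 and MUC17 with PAF1 and MUC1, MUC17 and MUC4 with PHF5A. Without MUC5AC the log2 ratios were -3.41 ± 0.585 and -3.64 ± 0.597, and with MUC6, MUC2 and MUC5B each set to its floor they were -2.91 and -3.11. The 4 gel-forming genes share 1 stretch of chromosome 11, and the membrane-bound genes lie on chromosomes 1, 3, 7 and 19, so class and location cannot be told apart.

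Taking the 10 genes as a whole, the median mucin promoter stood at 2.90 with PAF1, against 4.11 for all symbols, and at 3.58 with PHF5A, against 4.30 for all symbols. These medians lie -0.45 and -0.27 from those of all symbols on the log2(signal + 0.5) scale. The threshold of 2 times the median promoter, on the same scale, was reached by MUC20 and MUC13 in each library, so by 2 of 10 genes, beside 8.11% of all symbols with PAF1 and 6.76% with PHF5A. MUC20 stood at 2.51 and 2.57 times the median promoter, and MUC13 at 2.11 and 2.06 times. Both windows are doubtful, as MUC20 lies among near-identical copies and the MUC13 window is 19.1 kb from its RefSeq start.

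The gel-forming cluster was then set against its surroundings. The MUC6, MUC2, MUC5AC and MUC5B genes span 249 kb (chr11:1012821-1262172), and 132 other promoter windows have their start within 1 Mb of its ends. Most windows of that region were low, too. The cluster averaged 1.22 ± 0.272 with PAF1, against a median of 1.19 for the other windows, whose quartiles were 0.403 and 2.18. With PHF5A the cluster averaged 1.62 ± 0.315, against 1.49, with quartiles of 0.550 and 2.60. The log2 ratio of the cluster's average to that median was 0.04 ± 0.321 with PAF1 and 0.13 ± 0.280 with PHF5A. For ratios to that median, the ± takes the median as exact and leaves out the spread between the mucins. No difference of the average from that median was thus detectable with this error. These ratios set an average against a median. Taken against the mean of the other windows, the cluster's average gave log2 ratios of -0.42 and -0.17. The median of the 4 mucins was 0.635 with PAF1 and 0.685 with PHF5A, lower than the medians of 1.19 and 1.49. The cluster's average rests on MUC5AC. Without MUC5AC the log2 ratios to the median of the other windows were -1.19 ± 0.572 and -1.55 ± 0.586, and with each of the other 3 mucins set to its floor -0.69 and -1.01.

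Within the region MUC5AC was high and the other 3 mucins were in the lower part. Of the 124 windows within 1 Mb of the MUC5AC start, 105 were lower than MUC5AC with PAF1 and 117 with PHF5A. The windows counted around each gene's own start take in the other mucins of the cluster, which the 132 windows leave out. MUC2 exceeded 39 of 127 windows with PAF1 and 19 with PHF5A, MUC6 22 and 37 of 127, and MUC5B 38 and 28 of 122. Of the 132 windows around the cluster, 49 lay under the counting floor with PAF1 and 41 with PHF5A, or 37.1% and 31.1%, and ranks of MUC6, MUC2 and MUC5B among these cannot be read. Only 1 of them reached 2 times the median promoter with PAF1 (0.758%) and none did with PHF5A.

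Among protein-coding-style windows around the cluster, the hair keratin-associated gene KRTAP5-6 was highest by the mean of both libraries, with 7.29 ± 1.36 and 4.67 ± 1.09. NLRP6, an innate immune sensor of the gut, had 3.55 ± 0.924 and 6.31 ± 1.24, and IFITM1, an antiviral membrane protein, had 4.83 ± 1.08 and 4.75 ± 1.07. The lowest were MRPL23, a mitochondrial ribosomal protein gene listed at 0 in both libraries, TNNI2 of fast skeletal muscle at 0 and 0.0500, and SYT8 of the synaptotagmin family at 0.0500 and 0.330, all under the floor. Between the mucin genes lie 3 further windows. RP13-870H17.3, between MUC6 and MUC2, had 2.27 ± 0.740 and 3.57 ± 0.930, ENSG00000255177, inside MUC5B, 1.50 ± 0.600 and 3.85 ± 0.966, and MIR6744, also inside MUC5B, 0.820 ± 0.458 and 0.590 ± 0.389.

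**Figure D2:**
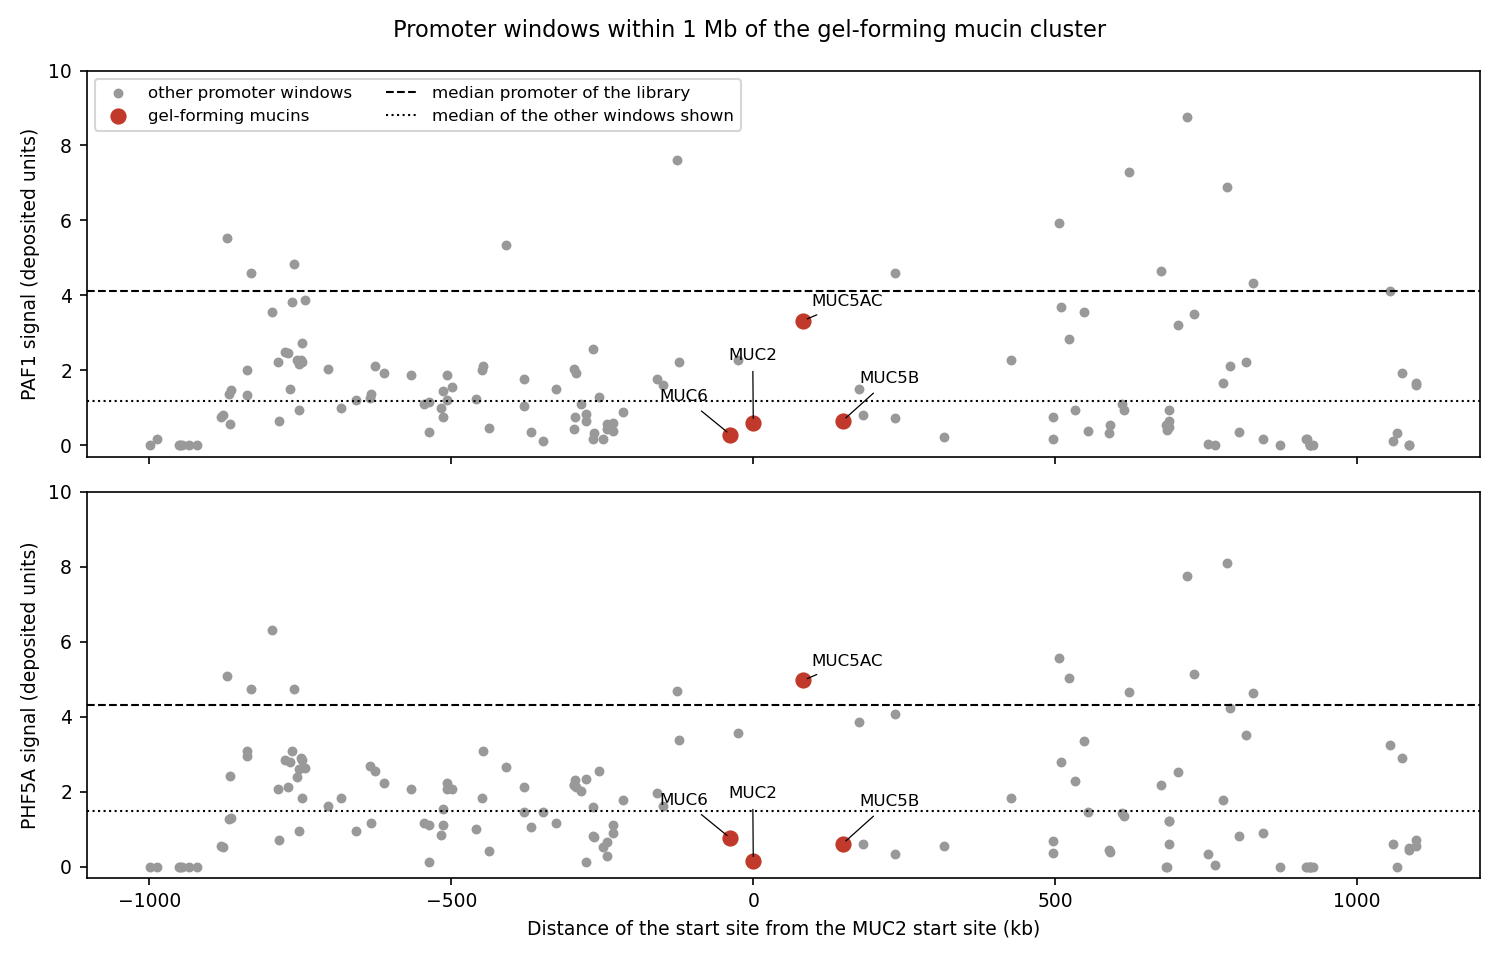
Each point is a promoter window within 1 Mb of the gel-forming mucin cluster, placed by the distance of its start from the MUC2 start (horizontal axis, kb) and its signal in deposited units (vertical axes), for PAF1 above and PHF5A below, with the 4 mucins in red. The dashed line is the median promoter of the library (4.11 and 4.30) and the dotted line the median of the 132 other windows (1.19 and 1.49). MUC5AC lies far above the dotted line, and MUC6, MUC2 and MUC5B lie below it.

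The low level extended to about 2 Mb from the cluster on the side away from the chromosome end. The cluster begins at base 1012821 of chromosome 11, so windows beyond 1 Mb lie on that side only. Windows less than 0.25 Mb from its ends had medians of 0.855 with PAF1 and 1.81 with PHF5A (28 windows). From 0.25 to 0.5 Mb the medians were 1.11 and 1.45, from 0.5 to 1 Mb 1.38 and 1.30, and from 1 to 2 Mb 1.80 and 1.70. Beyond this they were higher, 3.11 and 2.96 from 2 to 3 Mb and 5.03 and 5.17 from 3 to 5 Mb, and chromosome 11 as a whole had medians of 4.88 and 5.08. With each window's regional level defined as the median of 50 windows on each side, the level around the 4 genes was between percentiles 3.16 and 3.41 of all windows with PAF1 and between 3.72 and 4.04 with PHF5A.

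Membrane-bound mucins had surroundings near the median promoter. The median of the windows within 1 Mb was between 3.35 (MUC17) and 5.20 (MUC4) with PAF1, and between 3.85 (MUC17) and 5.14 (MUC1) with PHF5A. MUC20 exceeded 76 of the 77 windows around it in each library, with the lipocalin gene APOD at 9.16 ± 1.48 and 10.6 ± 1.60 as the highest protein-coding-style neighbour. MUC13 exceeded 49 of 52 windows with PAF1 and 51 with PHF5A, while UMPS, an enzyme gene of pyrimidine synthesis, had 9.72 ± 1.53 and 5.92 ± 1.20. MUC1 exceeded 36 and 44 of 115 windows, and the tropomyosin gene TPM3 was the highest of 59 protein-coding-style neighbours at 11.4 ± 1.66 and 12.8 ± 1.76.

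MUC17 exceeded 18 and 25 of 103 windows, among which the sulfotransferase gene GAL3ST4 had the highest protein-coding-style value at 8.76 ± 1.49 and 9.29 ± 1.54. MUC16 exceeded 21 of 94 windows with PAF1 and 84 with PHF5A, with the olfactory receptor gene OR7E24 as the highest of 45 protein-coding-style neighbours at 7.61 ± 1.35 and 8.55 ± 1.44. MUC4 exceeded 30 of 78 windows with PAF1 and 12 with PHF5A, and MUC20 was the highest of 21 protein-coding-style neighbours by the mean of both libraries. MUC20 and MUC4 start 91.4 kb apart, and MUC20 exceeded MUC4 by 6.50 ± 1.94 with PAF1 and 9.55 ± 1.85 with PHF5A, or 3.36 and 5.16 counting standard errors.

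Set against the regional level, the class averages were close to each other only with MUC5AC included. With each promoter divided by its regional level, the log2 ratio of gel-forming over membrane-bound mucins was 0.087 with PAF1, of the opposite sign, and -0.25 with PHF5A. On that scale, with 0.5 added to both values, MUC5AC stood at 2.55 and 2.83 times its region, while MUC6 stood at 0.491 and 0.633 times, MUC2 at 0.703 and 0.338 times and MUC5B at 0.761 and 0.574 times. Without MUC5AC, an alternative chosen after the values were seen, the regional log2 ratio of gel-forming over membrane-bound mucins was -1.21 with PAF1 and -1.94 with PHF5A, from 3 values under the floor. Among membrane-bound mucins MUC20 stood at 2.01 and 2.28 times and MUC13 at 1.85 and 1.81 times.

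**Figure D3:**
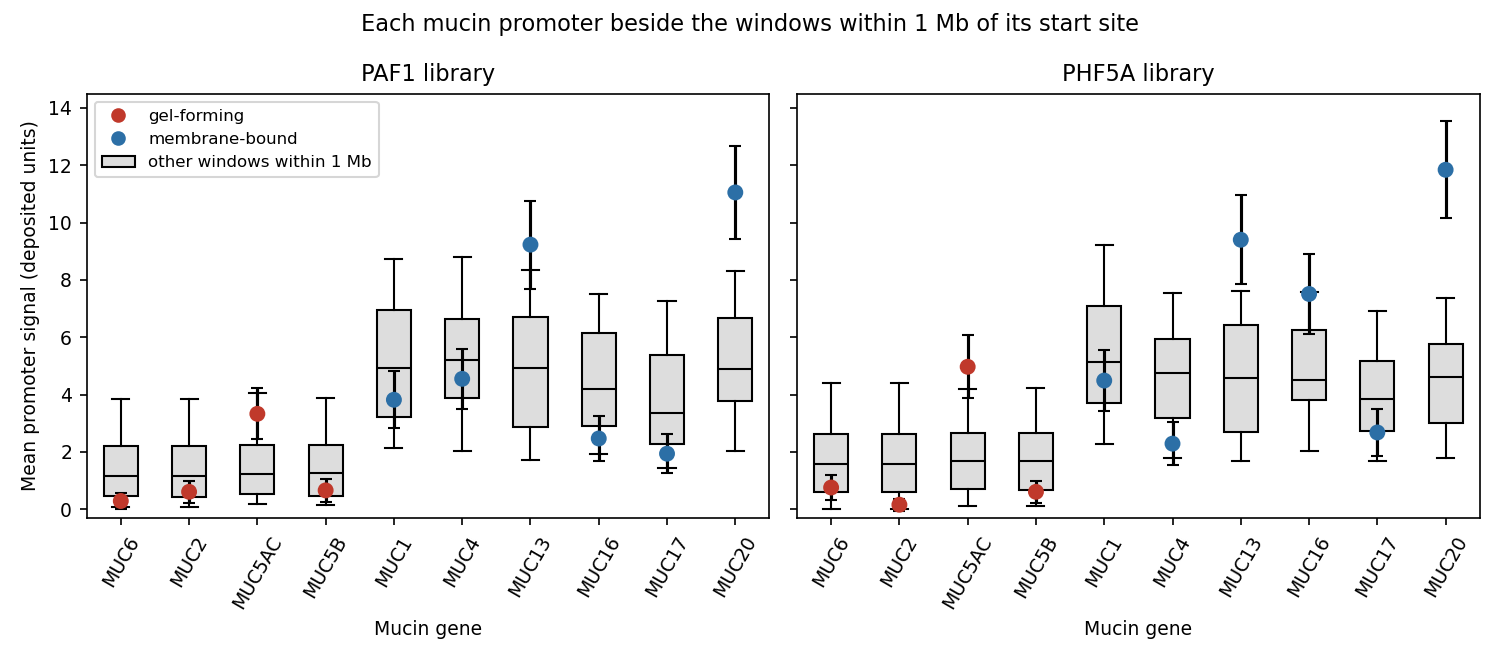
Points show the signal of each mucin promoter in deposited units with its counting standard error, gel-forming in red and membrane-bound in blue, and grey boxes the other windows within 1 Mb of its start (median line, quartile box, whiskers at percentiles 10 and 90), for PAF1 on the left and PHF5A on the right. The boxes of the 4 gel-forming mucins sit low, with medians from 1.16 to 1.70, and MUC5AC, MUC13 and MUC20 lie above their boxes in both panels.

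Windows that overlap a mucin window share its reads. The MIR92B window overlaps that of MUC1 by 1749 bp and had 2.64 ± 0.821 with PAF1 and 4.26 ± 1.04 with PHF5A, and RP11-263K19.4, overlapping by 48 bp, had 2.72 ± 0.809 and 5.25 ± 1.13. RP11-395B7.4 overlaps the MUC17 window by 1536 bp and had 1.05 ± 0.504 and 2.23 ± 0.735. The remaining 8 mucin windows overlapped none.

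For MUC13 and MUC16 the deposited window is not at the start site that RefSeq gives. The MUC13 start in RefSeq, on chromosome 3 at 124934751, is 19.1 kb from the deposited start, and that of MUC16, on chromosome 19 at 9065751, is 84.4 kb away. The other 8 windows hold the RefSeq start, at distances of 0 to 348 bp from the deposited one. No window of the table covers either RefSeq start. The nearest for MUC13 is its own, 18.6 kb away, and the nearest for MUC16 is that of the olfactory receptor pseudogene OR1M4P, 17.1 kb away, with 6.44 and 5.25. Without both genes, an alternative chosen after the values were seen, the log2 ratio of gel-forming over membrane-bound signal was -2.13 with PAF1 and -1.71 with PHF5A.

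Between the antibodies, the summed signal of the 10 promoters was 37.9 ± 3.06 with PAF1 and 44.7 ± 3.34 with PHF5A. After centring on the median promoters the log2 ratio of PAF1 over PHF5A was -0.17 ± 0.158. No difference of the sum was detectable with this error, which itself takes in differences between the libraries. MUC16 had the largest difference, -5.04 ± 1.60 (PAF1 minus PHF5A), or 3.15 counting standard errors, and 0.286% of windows differed by more than 3. It was the only mucin to differ more than 2-fold after centring, at -1.37 on the log2 scale, beside 2.29% of all symbols that were more than 2-fold higher with PHF5A. No mucin was more than 2-fold higher with PAF1, where 1.87% of all symbols were. MUC4 had the largest difference in that direction, 2.26 ± 1.28, or 1.76 standard errors. Without MUC16 the summed log2 ratio was -0.0031.

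Base composition moved with the signal across promoters. Over 12818 promoters whose 250 upstream bases lay inside the deposited window, the share of G and C correlated with signal at a Spearman's rho of -0.329 for PAF1 and -0.321 for PHF5A, a description over promoters that share a library and are not independent. Median PAF1 signal was 4.94 below 40% G+C, 5.05 from 40% to 50%, 4.11 from 50% to 60%, 3.38 from 60% to 70% and 2.70 from 70% upwards, and PHF5A medians were 5.17, 5.14, 4.37, 3.66 and 3.01. Around the gel-forming cluster, 33 of the 132 windows could be read. Their 250 upstream bases had a median of 68.4% G+C, against 62.0% over all promoters read.

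Other promoters of a similar range of composition had higher medians than these 33 windows. The 33 windows, taken whatever their own composition, had a median of 1.11 with PAF1 and 1.42 with PHF5A. The medians were 3.11 and 3.40 for 5057 other promoters between the quartiles of the 33, 62.8% and 76.8% G+C. These sets were not matched window by window. MUC2, with 59.6% G+C, was higher than 2.64% of the 1668 promoters within 2 percentage points of it with PAF1 and 1.019% with PHF5A. MUC17, with 60%, was higher than 16.9% and 26.1% of such promoters, MUC4, with 60.4%, than 63.3% and 18.9%, and MUC1, with 66.0%, than 61.4% and 66.9%. No such value was read for MUC6, MUC5AC, MUC5B or MUC20. The part of base composition, of mappability and of copy number in these levels was not tested.

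**Figure D4:**
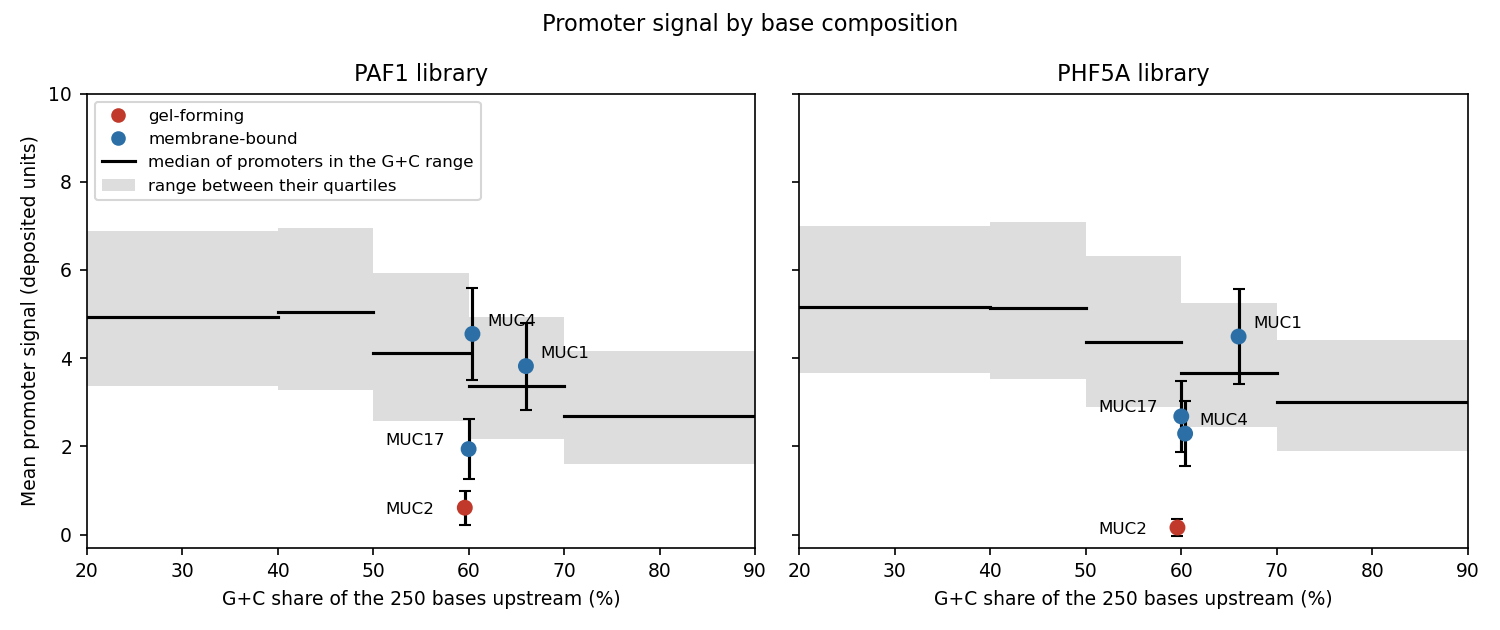
Signal in deposited units (vertical axes) is plotted against the G+C share of the 250 bases upstream of the start (horizontal axes, %), for PAF1 on the left and PHF5A on the right. Black lines are medians and grey areas the range between the quartiles of the 12818 promoters in 5 ranges of G+C, and points are the 4 mucins that could be read, with counting standard errors. MUC2 lies far under the grey area in both panels, and MUC1 lies within it. MUC17 lies slightly under it with PAF1, and MUC4 lies slightly under it with PHF5A.

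Mucins outside the list of 10 were also read. MUC19, a gel-forming mucin on chromosome 12 and so outside the cluster, had 4.22 ± 1.01 with PAF1 and 5.70 ± 1.17 with PHF5A, with medians of 3.44 and 3.49 in the 21 windows within 1 Mb. Of 12 other mucin and mucin-like genes, 7 lay above the median promoter with PAF1 and 9 with PHF5A, and their median was 4.69 and 5.22. The surface mucin genes MUC21 and MUC22 of chromosome 6 were highest, at 15.1 ± 1.91 and 19.4 ± 2.17 and at 13.7 ± 1.87 and 14.4 ± 1.92, in a region whose 194 windows had medians of 10.5 and 11.01. The sialomucin gene CD164 was lowest, at 2.22 ± 0.731 and 2.06 ± 0.707.

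On chromosome 7, MUC17 lies next to MUC12 and MUC3A, both membrane-bound mucins of the intestine. MUC12, 50.4 kb from MUC17, had 7.27 ± 1.32 and 6.93 ± 1.29, so that MUC17 was lower by 3.58 counting standard errors with PAF1 and 2.79 with PHF5A. MUC3A had 3.05 ± 0.857 and 4.30 ± 1.02, from which MUC17 differed by 1.01 and 1.25 standard errors.

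Genes that act on mucins or with them had signals spread around the median promoter. Of 29 genes of mucin O-glycosylation, 12 lay above the median promoter with PAF1 and 14 with PHF5A, with list medians of 3.94 and 4.24, and 3 and 1 reached 2 times the median, or 10.3% and 3.45%, beside 8.11% and 6.76% of all symbols. By the mean of both libraries GALNT16 and GALNT8 were the highest and GALNT1 the lowest. GALNT16, of the family that adds the first sugar, had 9.11 ± 1.52 and 10.9 ± 1.67, GALNT8 of the same family 9.33 ± 1.50 and 7.99 ± 1.39, and GALNT1 0.940 ± 0.489 and 0.470 ± 0.348. Of 12 mucus partner genes 6 lay above the median in each library, from BCAS1 (7.05 ± 1.34 and 11.4 ± 1.71) and AGR2, a disulfide isomerase needed for MUC2 folding in mice (7.33 ± 1.33 and 8.71 ± 1.45), to the trefoil peptide gene TFF2 (1.55 ± 0.611 and 1.06 ± 0.507).

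Transcription factors of mucous epithelium, 21 in number, had medians of 3.82 and 4.43, with 7 and 11 above the median promoter. HNF4A, a nuclear receptor of gut and liver epithelium, had 8.58 ± 1.48 and 10.3 ± 1.63, EHF, an epithelial ETS factor, 7.50 ± 1.34 and 9.33 ± 1.50, and GATA5, lowest by the mean of both libraries, 1.00 ± 0.504 and 1.30 ± 0.577. None of them reached 2 times the median promoter with PAF1, and 2 did with PHF5A, or 9.52%, beside 8.11% and 6.76% of all symbols.

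By likeness of level over the 2 libraries, measured as distance in log2(signal + 0.5), the promoters nearest to MUC20 among 19248 protein-coding-style symbols were those of the olfactory receptor gene OR2J1, with identical values, and of DBF4B, at 0.0153. In all, 148 symbols lay within 0.2 of MUC20. For MUC2, MUC6 and MUC5B, whose values lie under the floor, no likeness is given. With 2 values per gene such likeness describes level alone.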

How the data were processed

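ChIP-seq libraries of SW1990 cells were analysed from 1 deposited table, in which the authors give the mean signal of the PAF1 and PHF5A libraries per promoter window of hg38, per the file headers. How it was normalized the sources used here do not state. Fixation used 1.5 mM EGS and 0.4% formaldehyde, per the labels' protocols. Bowtie2 2.2.3, bedtools, deepTools, Trim Galore and Picard are named in the submitters' processing notes.

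The table lists 60123 windows under 57997 symbols, and windows of 1 symbol were averaged. Multiplied by the number of 150 bp bins in reach of a window, the PAF1 signal (truncated at 2 decimals) is a whole number within 0.0051 per bin in 100% of windows above 0, and PHF5A signal does so after division by 1.00608. A fragment can enter several bins. The dispersion of 4.33 was estimated from the split of bin sums between the libraries over 51590 non-overlapping windows. A window's standard error is the root of its bin sum multiplied by the dispersion, over its number of bins, and the floor is 3 counts times the dispersion. These errors and floors thus rest on counts and on the difference between the libraries. They hold no variation between replicates.

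The mucins, the gene lists and the rules for named genes were chosen with earlier results of these data known. Named were all members, the 2 highest and the lowest gene of each list, overlapping windows, the 3 highest and 3 lowest protein-coding-style windows around the cluster, the highest around each other member, and the nearest symbols of the highest and lowest member (not given for the lowest, which lies under the floor). A gene of the acinar list that this rule names is not reported here. Protein-coding-style symbols (19248) were set by their names and RefSeq biotypes. RefSeq (GRCh38.p14) gave start sites of 10 members and promoters of 6. The log2 scale used log2(signal + 0.5). No test was made, as each antibody has 1 library, and the input library was not analysed here. Tools were SciPy 1.17.1, numpy 2.4.6, matplotlib 3.10.9, pandas 2.3.3 and Python 3.11.15.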

Additional observations from a re-analysis of the deposited data

How the results depend on the processing

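The comparisons of mucin classes moved most with the regional level and with MUC5AC. Division by the regional level gave log2 ratios of gel-forming over membrane-bound signal of 0.087 with PAF1, which reversed the direction, and -0.25 with PHF5A, but with MUC5AC also left out it gave -1.21 and -1.94. Leaving out MUC5AC moved this ratio to -3.41 and -3.64, and moved the cluster's ratio to the windows within 1 Mb to -1.19 and -1.55. With each other member left out in turn the class ratio ran up to -1.85 with PAF1 and -1.59 with PHF5A, and the cluster's ratio up to 0.37 and 0.50. Leaving out symbols with a mean signal under 1, which removes MUC6, MUC2 and MUC5B, moved the median mucin against all symbols to -0.18 with PAF1 and turned it to 0.12 with PHF5A. The remaining alternatives for pseudocount, background, neighbour distance, threshold and centring stayed within a margin of the main value, or within 1.5 times of it for counts. This margin was wider than 1 counting standard error. With PAF1 and PHF5A it was 0.675 and 0.594 for the class ratio and 0.629 and 0.548 for the cluster's ratio. For the median mucin it was 0.237 and 0.225. With protein-coding-style symbols as background the median mucin stood at -0.30 and -0.15. Against the mean of the other windows the cluster's ratio was -0.42 and -0.17, more than 1 standard error from its main values. Alternatives without MUC13 and MUC16, with MUC19 as a gel-forming mucin, with the regional level but no MUC5AC and without neighbours at 0 were chosen after the data were seen. With MUC19 as a gel-forming mucin the class ratio was -1.60 with PAF1 and -1.38 with PHF5A. Both lay within the margin but more than 1 counting standard error from the main values. No paired analysis was possible because each antibody has 1 library. The counting floor limits the reading of MUC6, MUC2 and MUC5B most, since their values lie under it.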

Other observations

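Marker lists of pancreatic cell types were read as a check of the label. Of 12 duct genes, 7 lay above the median promoter with PAF1 and 6 with PHF5A, with list medians of 4.75 and 4.25. None of the 12 reached 2 times the median promoter, beside 8.11% of all symbols with PAF1 and 6.76% with PHF5A. Of the 10 acinar genes none did with PAF1 and 1 did with PHF5A (10%), and of the 7 endocrine genes 2 did in each library (28.6%). By the mean of both libraries KRT8, an epithelial keratin, was highest at 6.94 ± 1.29 and 8.27 ± 1.41, followed by the adhesion gene EPCAM at 6.70 ± 1.31 and 6.50 ± 1.29, and the bicarbonate transporter gene SLC4A4 was lowest at 0.720 ± 0.417 and 2.01 ± 0.698. The 10 acinar genes had medians of 4.33 and 4.33, from the trypsinogen gene PRSS1 (6.94 ± 1.29 and 9.66 ± 1.53) down to CEL, lowest by that mean (2.05 ± 0.703 and 1.34 ± 0.570). The 7 endocrine genes had medians of 4.11 and 5.08, with the somatostatin gene SST at 15.7 ± 1.94 and 10.3 ± 1.58 and the glucagon gene GCG at 8.72 ± 1.45 and 9.11 ± 1.48. The insulin gene INS, on chromosome 11 in the low region around the mucin cluster, showed 0 for PAF1 and 0.440 ± 0.329 for PHF5A, under the floor. Of these 3 lists the duct list had the highest median with PAF1 and the lowest with PHF5A, and the identity of the cells was not tested by it.

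Of the 132 windows within 1 Mb of the gel-forming cluster, 11 were listed at 0 in both libraries. Without them the log2 ratio of the cluster's average to the median of the remaining windows was -0.14 with PAF1 and -0.13 with PHF5A.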
